A study of Saccharomyces cerevisiae with 4 samples.

Results

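Small nucleolar RNAs (snoRNAs) were followed through heat shock and rapamycin treatment in the budding yeast Saccharomyces cerevisiae. The members are the 76 features, of 7126 listed, whose names begin with SNR and a digit, after the spliceosomal RNAs SNR6, SNR7-L, SNR7-S, SNR14 and SNR19 were left out. RefSeq's R64 annotation names all 76 as snoRNA genes and holds no further one. They comprise 47 box C/D and 29 box H/ACA snoRNAs. The annotation gives the class of 74, and both U3 genes (snR17a and snR17b) were classed as box C/D from textbook knowledge. All 76 passed the filter on low values, a mean of at least 5 normalised reads.

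All 4 libraries came from strain DPY438, whose genotype is labelled Hsf1-AA. In this anchor-away strain, rapamycin tethers a tagged Hsf1, the transcription factor that activates chaperone genes, to a protein that carries it out of the nucleus. The groups were heat shock with rapamycin (10 min at 39 °C), heat shock without rapamycin, 30 °C with rapamycin and 30 °C without rapamycin, and rapamycin was given at 1 µM for 45 min. Every group held 1 library, so none of the ratios below was tested, and a 2-fold difference is a rule of size. All groups carry the anchor-away genotype, and the labels do not say whether the strain resists rapamycin's own effect on TORC1, the growth-controlling kinase complex, or whether rapamycin preceded the heat. Total RNA was sequenced, no label mentions a spike-in, and each library averages a culture, so more snoRNA per cell and less of the other RNA cannot be told apart.

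A snoRNA works as the guide of a small ribonucleoprotein in the nucleolus. Box C/D snoRNAs pair with ribosomal RNA (rRNA) and direct ribose methylation of the paired base by the methyltransferase Nop1, while box H/ACA snoRNAs direct conversion of uridine to pseudouridine by Cbf5. A few have another task: U3, snR30, snR10 and U14 (named snR128 in yeast) act in the cleavage of the rRNA precursor, and snR4 and snR45 guide cytidine acetylation. In yeast most snoRNA genes have a promoter of their own, some are processed from a precursor that holds several snoRNAs, and some from introns of protein-coding genes.

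The sequences follow this division. In the R64 genome the letters TGATGA (box C) lay in the first 20 bases of 36 of 47 box C/D RNAs and of 1 of 29 box H/ACA RNAs. The letters CTGA (box D) lay in the last 15 bases of 45 of 47 box C/D RNAs and of 1 of 29 box H/ACA RNAs. Both boxes were found in 36 box C/D RNAs and in 0 box H/ACA RNAs. ACA stood exactly 3 bases from the annotated end in 14 of 29 box H/ACA RNAs and in 3 of 47 box C/D RNAs. Box C/D RNAs were shorter, with a median exon length of 98 bases against 204 for box H/ACA RNAs, and the whole range ran from 78 bases (snR59) to 1004 (snR86).

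The 3 sequences printed next show how alike family members can be, which bears on whether reads could have been assigned to the wrong one. They are given 5′ to 3′ from the RefSeq R64 genome, with boxes C and D and the stretch that pairs with rRNA in capitals. snR39 (chrVII:365163-365251, minus strand) lies in an intron of RPL7A, and snR59 (chrXVI:173827-173904, plus strand) in an intron of its paralog RPL7B. snR39B (chrVII:366374-366469, minus strand) has a gene of its own.
snR39: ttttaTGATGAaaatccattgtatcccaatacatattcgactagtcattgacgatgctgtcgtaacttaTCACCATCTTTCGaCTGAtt
snR59: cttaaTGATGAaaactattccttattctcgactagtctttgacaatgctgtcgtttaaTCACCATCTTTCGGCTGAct
snR39B: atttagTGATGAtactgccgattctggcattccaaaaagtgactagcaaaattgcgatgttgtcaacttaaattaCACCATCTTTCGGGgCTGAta
Both intronic RNAs are annotated to guide methylation of adenosine 807 of the large subunit rRNA, and snR39B that of guanosine 805. The pairing stretches are 13 bases in snR39, 14 in snR59 and 14 in snR39B. snR39 and snR59 were identical at 75.3% of positions but shared no run over 14 bases, and the U3 genes were identical at 82.4% with a shared run of 77 bases. Reads of the U3 pair are therefore also given as a sum.

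The next sequences belong to members on which later comparisons turn. snR38 (chrXI:283185-283279, plus strand, in an intron of TEF4), snR60 (chrX:349130-349233, minus strand) and snR70 (chrXVI:718887-719050, minus strand) were the members past 2-fold between the 30 °C libraries. Box H/ACA RNA snR35 (chrXV:759326-759529, minus strand) had the largest difference between the heat shock ratios with and without rapamycin, and box H/ACA RNA snR5 (chrXV:842403-842606, plus strand) the highest heat shock ratio without rapamycin. Capitals mark boxes C and D, the longest stretch that pairs with the annotated rRNA target where it spans at least 8 bases, and, in snR35, the ACA near the end.
snR38: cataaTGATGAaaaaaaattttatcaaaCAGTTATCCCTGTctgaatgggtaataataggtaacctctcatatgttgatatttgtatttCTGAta
snR60: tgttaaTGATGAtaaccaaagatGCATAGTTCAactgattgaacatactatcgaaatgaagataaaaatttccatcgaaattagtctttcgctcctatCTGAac
snR70: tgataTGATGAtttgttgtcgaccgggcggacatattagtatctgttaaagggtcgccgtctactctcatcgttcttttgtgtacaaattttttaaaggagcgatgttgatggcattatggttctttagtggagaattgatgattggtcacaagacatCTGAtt
snR35: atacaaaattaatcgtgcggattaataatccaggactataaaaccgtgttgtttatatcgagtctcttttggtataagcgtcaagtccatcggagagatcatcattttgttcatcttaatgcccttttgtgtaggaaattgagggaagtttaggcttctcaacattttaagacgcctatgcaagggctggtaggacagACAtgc
snR5: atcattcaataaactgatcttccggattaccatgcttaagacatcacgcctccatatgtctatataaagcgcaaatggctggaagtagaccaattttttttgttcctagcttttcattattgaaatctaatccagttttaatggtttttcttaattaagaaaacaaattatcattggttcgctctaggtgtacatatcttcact
snR38 pairs over 13 bases around guanosine 2815 of the large subunit rRNA and snR60 over 10 bases around adenosine 817. Of 55 annotated targets of box C/D RNAs, 53 had the stated base at the stated position and were searched (the others are 2 of snR24), and 43 of the 53 had a Watson-Crick duplex of at least 8 bases around the modified base, with a median of 11 and a longest of 16. In 29 of the 43, CTGA began 5 bases after the base that pairs with the target, and in 37 at least 3 of these 4 letters matched there.

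The libraries held 2254007 assigned reads in heat shock with rapamycin, 2026880 in heat shock without it, 3231228 at 30 °C with it and 1561620 at 30 °C without it. Values are deposited normalised read counts. One assigned read stood for 0.961 units in heat shock with rapamycin, 1.50 in heat shock without it, 0.888 at 30 °C with it and 1.43 at 30 °C without it. No member was at 0 in any library, and single members had 103 to 26255 reads. Intervals in parentheses are exact 95% counting intervals, which cover counting error only. HSF1 itself read 225 in heat shock with rapamycin and 288 without it, against 107 at 30 °C with rapamycin and 157 without it, but its mRNA does not check depletion of the protein because anchor-away leaves the gene intact. Between the libraries the reads were divided differently among RNA classes: transfer RNA features took 10.1% of reads in heat shock with rapamycin, 13.8% in heat shock without it, 18.3% at 30 °C with it and 14.3% at 30 °C without it.

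The snoRNAs together took 11.6% of all reads in heat shock with rapamycin and 13.6% in heat shock without it, against 8.93% at 30 °C with rapamycin and 9.93% without it (exact binomial intervals within 0.1 points). Their summed value was 252146 in heat shock with rapamycin and 414756 in heat shock without it, against 256406 at 30 °C with rapamycin and 221767 without it. On the deposited scale the heat shock library without rapamycin stood apart from the other 3 in this sum, which lay close together. By share of reads, both heat shock libraries lay above both 30 °C libraries. Box C/D RNAs made up 5.91%, 7.07%, 4.43% and 5.19% of all reads in that order of libraries, and box H/ACA RNAs 5.74%, 6.57%, 4.50% and 4.75%.

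Levels of different snoRNAs were compared per kilobase of RNA. U14 (snR128) led in both heat shock libraries and at 30 °C without rapamycin. It had 74893 units per kilobase in heat shock with rapamycin and 120942 in heat shock without it, against 74708 at 30 °C with rapamycin and 75081 without it. Its cluster partner snR190 led at 30 °C with rapamycin, with 94041 units per kilobase there, and had 62292 in heat shock with rapamycin, 106733 in heat shock without it and 66285 at 30 °C without it. snR40, snR77 and snR3 completed the 5 highest by mean. The lowest in both heat shock libraries and at 30 °C with rapamycin was the methylation guide snR65, with 2008 units per kilobase in heat shock with rapamycin and 3523 in heat shock without it, against 1173 at 30 °C with rapamycin and 1959 without it. The median member had 15578 units per kilobase in heat shock with rapamycin and 25298 in heat shock without it, against 12657 at 30 °C with rapamycin and 13091 without it. In reads, snR30, snR37, snR17a, snR190 and snR128 had the highest mean values and together held 28.7% of the snoRNA reads in heat shock with rapamycin, 28.6% in heat shock without it, 31.1% at 30 °C with it and 30.3% at 30 °C without it.

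Ratios between libraries depend on the scaling. Directions and counts below are on the deposited scale. Dividing each library by its total instead moves the median log2 ratio of all features to -0.42 for heat shock without rapamycin, 0.40 for heat shock with it, -0.34 for rapamycin at 30 °C and 0.53 for rapamycin in heat shock. Every snoRNA ratio moves with it, and the main counts are also given on library totals.

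**Figure D1:**
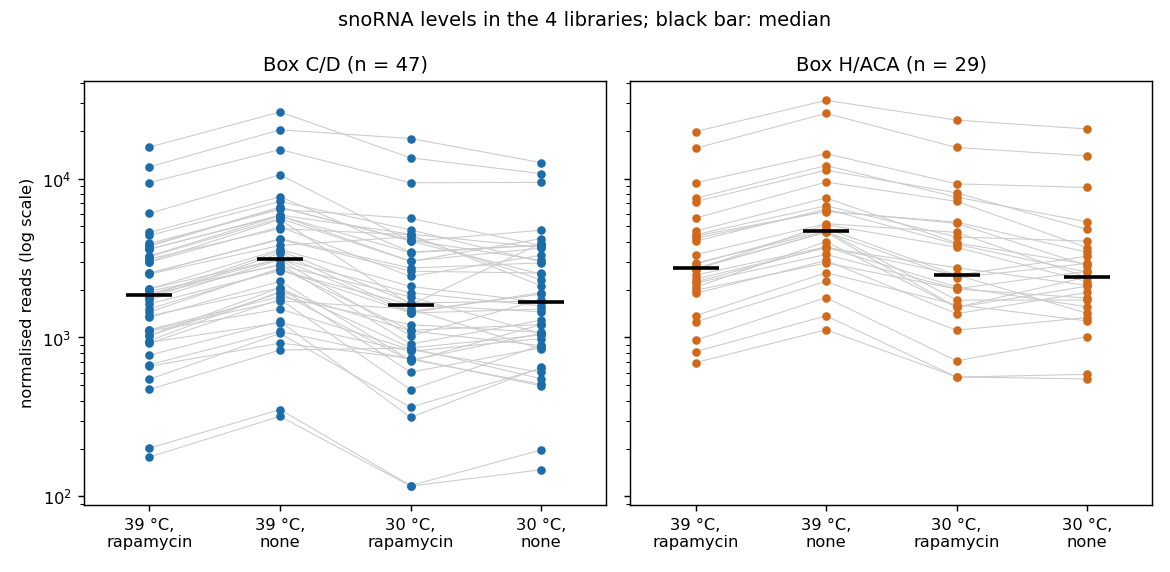
Deposited normalised read counts (log axis) of every snoRNA in each library, box C/D and box H/ACA RNAs shown apart; each point is 1 snoRNA, grey lines join its values and the black bar is the class median. The median over all members is 3707 in heat shock without rapamycin and between 2012 and 2283 in the other 3 libraries.

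The first comparison asked how snoRNA levels differed after 10 min at 39 °C in cells given no rapamycin. All 76 snoRNAs were higher in heat shock, where 50.8% of the 5642 features kept were above 0; on library totals 73 of the 76 still were. The median log2 ratio of the snoRNAs was 0.92, or 1.90-fold, beside 0.02 for all features. At least 2-fold higher were 34 of 76, against 19.8% of all features, and 0 of 76 were at least 2-fold lower, against 19.3%. On library totals the median was 0.48, beside -0.42 for all features, and 0 of 76 were at least 2-fold higher (background 12.8%). On the deposited scale the counting interval lay above 1 for all 76, a count that was not made over all features. Box H/ACA RNAs had a median of 1.01 (15 of 29 past 2-fold) and box C/D RNAs 0.89 (19 of 47), with an SD across members of 0.30 and 0.27; the difference between the classes was not tested.

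The 5 highest ratios were those of snR5, snR51, snR45, snR31 and snR9. snR5, which guides pseudouridylation of the large subunit rRNA and whose sequence is printed above, read 2938 in heat shock with rapamycin and 4666 in heat shock without it, against 1718 at 30 °C with rapamycin and 1720 without it. Without rapamycin it was 2.71-fold higher in heat shock (2.54 to 2.90). snR51, annotated to both rRNAs, was at 2843 against 1058, 2.69-fold higher (2.47 to 2.93), and the acetylation guide snR45 at 6621 against 2502, 2.65-fold higher (2.50 to 2.80). snR31 followed at 2.62-fold (2.43 to 2.82) and snR9 at 2.61-fold (2.48 to 2.75). Both heat shock values of snR5 lay above both of its 30 °C values.

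At the low end stood snR39B, snR82, snR18, snR60 and snR67. snR39B, the RNA whose guide stretch overlaps in part with that of snR39, read 932 in heat shock with rapamycin and 1238 in heat shock without it, against 818 at 30 °C with rapamycin and 984 without it. Its heat shock ratio without rapamycin was 1.26-fold (1.14 to 1.40). snR82 was 1.28-fold higher (1.20 to 1.36) and snR18, from an intron of the elongation factor gene EFB1, 1.34-fold (1.28 to 1.41). On library totals snR39B, snR82 and snR18 lay below 0. Just inside the 2-fold rule was snR58 (log2 1.01) and just outside it snR79 (0.98).

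The RNAs that act in precursor cleavage were spread over this range. The U3 genes together read 20182 in heat shock with rapamycin and 33422 in heat shock without it, against 18260 at 30 °C with rapamycin and 13741 without it. The heat shock ratio of this sum without rapamycin was 2.43-fold (2.37 to 2.49), and snR17a (1.29) and snR17b (1.26) had similar log2 ratios, as far as their reads can be divided. By the same measure U14 was 1.61-fold higher (1.56 to 1.66), snR30 1.51-fold (1.48 to 1.55) and snR10 1.50-fold (1.42 to 1.58). snR10 and snR17a lie on the same strand as another annotated feature (YGL088W and IRC13), as does snR60 (YJL047C-A), so their reads could be shared with it. snR52, which RNA polymerase III transcribes, was in heat shock at 5897 against 3697, 1.59-fold higher (1.52 to 1.68). The acetylation guide snR4 was at 5814 against 3802, 1.53-fold higher (1.46 to 1.61).

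When rapamycin was present, heat shock and 30 °C differed little in the middle of the class. Of 76 snoRNAs, 46 were above 0 and 30 below, where 49.9% of all features were above 0. On library totals 68 were above 0, where the median of all features was itself 0.40. The median log2 ratio of the snoRNAs was 0.09, and 0.50 on library totals. Only snR38 and snR50 were at least 2-fold higher (background 18.3%) and 0 of 76 were at least 2-fold lower (background 14.6%). On library totals 12 were at least 2-fold higher (background 28.1%). The members differed more among themselves than without rapamycin, with an SD of 0.44 against 0.28 on the log2 scale. Counting intervals on the deposited scale lay above 1 for 40 members and below 1 for 22, again without a count over all features.

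snR38 read 774 in heat shock with rapamycin and 1261 in heat shock without it, against 314 at 30 °C with rapamycin and 649 without it. With rapamycin it was 2.46-fold higher in heat shock (2.17 to 2.80). Its 30 °C value with rapamycin was the lowest of the 4. snR50, which guides methylation of guanosine 867 of the large subunit rRNA, was at 1855 against 909, 2.04-fold higher (1.89 to 2.20), and snR57 at 921 against 469, 1.96-fold higher (1.76 to 2.19). The lowest ratio was that of snR53, with 471 in heat shock with rapamycin and 834 in heat shock without it, against 858 at 30 °C with rapamycin and 550 without it. It was 1.82-fold lower in heat shock with rapamycin (1.63 to 2.04). snR69 was 1.72-fold lower (1.64 to 1.80), snR190 1.51-fold (1.48 to 1.54), snR13 1.44-fold (1.38 to 1.50) and snR70 1.42-fold (1.36 to 1.49). For snR53 and snR69 the highest of the 4 values was the one at 30 °C with rapamycin.

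**Figure D2:**
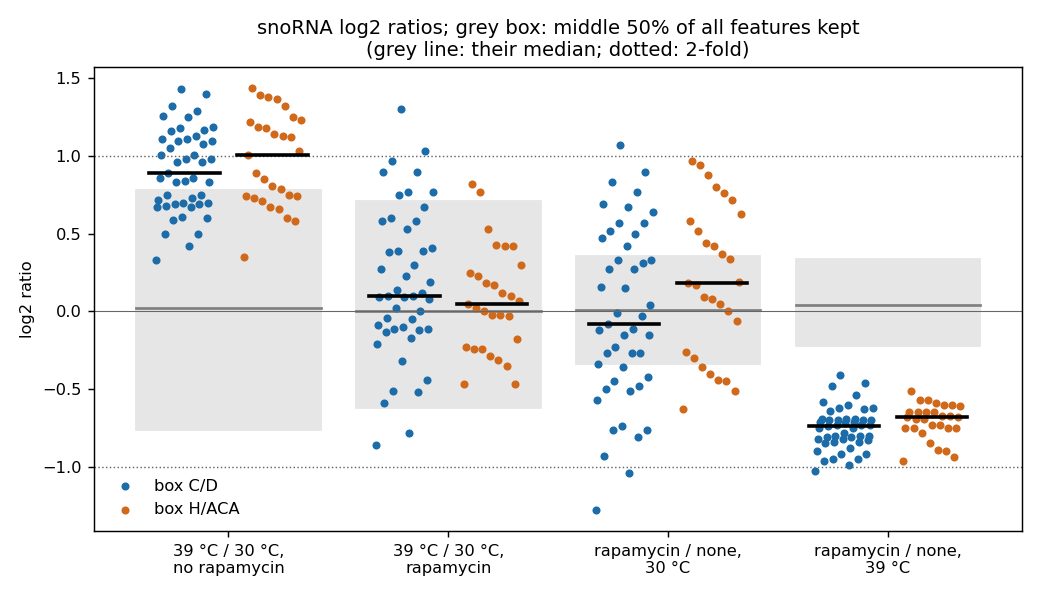
Log2 ratios of every snoRNA in the 4 comparisons, box C/D and box H/ACA RNAs shown apart; the black bar is the class median, the grey box holds the middle 50% of all 5642 features with their median as a grey line, and dotted lines mark 2-fold. On the deposited scale all 76 points lie above 0 for heat shock without rapamycin and below 0 for rapamycin in heat shock, against 73 and 73 on library totals, and they straddle 0 in the other comparisons.

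The comparison of the heat shock libraries asked how levels with and without rapamycin differed at 39 °C. All 76 snoRNAs were lower with rapamycin and 0 above 0, where 54.0% of all features were above 0; on library totals 73 of the 76 were lower. The median log2 ratio was -0.73, a 1.65-fold lower value, beside 0.04 for all features. On library totals it was -0.24, beside 0.53 for all features. Only snR78 was at least 2-fold lower, 1 of 76 (background 2.46%), and 0 were at least 2-fold higher (background 4.56%). It read 953 in heat shock with rapamycin and 1946 in heat shock without it, against 1100 at 30 °C with rapamycin and 888 without it, and was 2.04-fold lower (1.88 to 2.22). Next to it were snR62 (log2 -0.99), the intronic snR39 (-0.96), snR46 (-0.96) and snR73 (-0.95). Nearest to 0 were snR39B (1.33-fold lower, 1.21 to 1.46), snR41 (1.37-fold, 1.26 to 1.50) and snR54 (1.40-fold, 1.25 to 1.56), which lie above 0 on library totals, followed by snR42 (1.42-fold lower, 1.36 to 1.49) and snR51 (1.45-fold, 1.36 to 1.55).

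In this pair of libraries the snoRNAs stood at a nearly constant ratio to one another. The SD of the log2 ratio across members was 0.13, and 0.14 in box C/D and 0.11 in box H/ACA RNAs, with medians of -0.74 and -0.68. It was as small across the 5 spliceosomal RNAs with reads (0.07). The 4 RNAs of the signal recognition particle, RNase P, RNase MRP and telomerase had an SD of 0.08. For the 29 transfer RNA features that passed the filter the SD was larger, 0.68. Across the 1670 protein-coding genes whose mean value was at least that of the lowest member, 190, the same SD was 0.83. Between the 30 °C libraries the SD was 0.54 across snoRNAs and 0.50 across those protein-coding genes. Across snoRNAs it was 0.28 in heat shock without rapamycin against 30 °C without it, and 0.31 in heat shock with rapamycin against 30 °C without it. It was 0.44 and 0.48 where the 30 °C library with rapamycin was set against the heat shock library with and without the drug. The snoRNA profile of that 30 °C library thus lay farthest from those of the other 3.

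The comparison at 30 °C asked how they differed without heat. The class was split: 40 of 76 snoRNAs were above 0 (51.2% of all features) and 36 below, with a median log2 ratio of 0.06. On library totals 25 were above 0 and the median was -0.30, beside -0.34 for all features. At least 2-fold higher was 1 of 76, snR70 (background 4.70%), and at least 2-fold lower were 2, snR60 and snR38 (background 4.02%). On library totals these counts were 0 and 7, where 10.4% of all features were at least 2-fold lower. On the deposited scale most members nevertheless differed by more than counting error, since the interval lay above 1 for 38 and below 1 for 29. Such intervals were not counted over all features. Box H/ACA RNAs had a median of 0.18 (19 of 29 above 0) and box C/D RNAs -0.08 (21 of 47 above 0), both negative on library totals (-0.18 and -0.44), beside an SD within each class of 0.48 and 0.56. Members shorter than 120 bases had a median of -0.15 (14 of 37 above 0) and longer ones 0.19 (26 of 39), or -0.51 and -0.17 on library totals. Length and box class overlap here, because all 37 shorter members are box C/D RNAs. The 10 longer box C/D RNAs had a median of 0.42, above the 0.18 of the box H/ACA RNAs, all of which are longer ones. Across the 76 members, which share these libraries, the ratio had a Pearson r of 0.34 with log2 length, 0.35 with the mean level and 0.26 with GC content, given as descriptions. The part of RNA length and of the transfer RNA share in these ratios was not tested.

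snR60 read 3004 in heat shock with rapamycin and 5522 in heat shock without it, against 1607 at 30 °C with rapamycin and 3913 without it. At 30 °C it was 2.43-fold lower with rapamycin (2.29 to 2.59), and snR38 was 2.06-fold lower (1.79 to 2.38). Both are box C/D RNAs aimed at the large subunit rRNA, and in both the 30 °C library with rapamycin was the lowest of the 4. snR57 followed with a log2 ratio of -0.93, then snR39 (-0.81) and snR71 (-0.76). snR70, which guides methylation of cytidine 1639 of the small subunit rRNA, read 3120 in heat shock with rapamycin and 4838 in heat shock without it, against 4432 at 30 °C with rapamycin and 2116 without it. At 30 °C it was 2.09-fold higher with rapamycin (1.98 to 2.22). Behind it came the box H/ACA RNAs snR35 (1.95-fold, 1.87 to 2.04), snR83 (1.92-fold, 1.82 to 2.03) and snR34 (1.84-fold, 1.75 to 1.94) and the box C/D RNA snR69 (1.87-fold, 1.76 to 1.98).

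**Figure D3:**
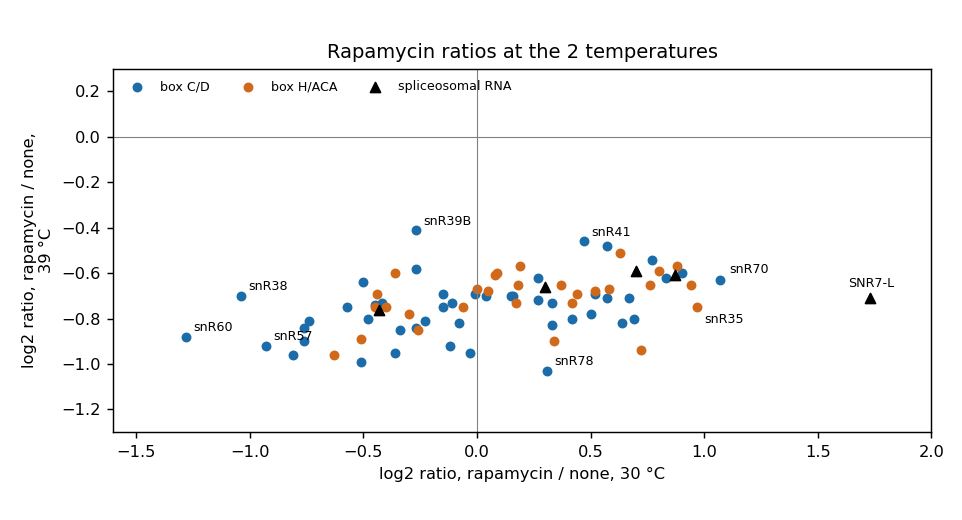
Log2 ratio of rapamycin over none at 30 °C (horizontal) and in heat shock (vertical) for box C/D RNAs, box H/ACA RNAs and the 5 spliceosomal RNAs with reads; the 4 libraries enter once each. On the deposited scale snoRNAs spread from -1.28 to 1.07 at 30 °C but only from -1.03 to -0.41 in heat shock; on library totals 3 of the 76 lie above 0 in heat shock.

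The heat shock ratio with rapamycin minus the ratio without it was above 0 for 3 of 76 snoRNAs on the deposited scale, where 53.1% of all features were, but for 42 of 76 on library totals. Its median was -0.75 (1.68-fold) on the deposited scale, beside 0.06 for all features, and 0.10 beside 0.90 for all features on library totals, so that relative to all features it was -0.81 and -0.80. At least 2-fold lower were 28 of 76 (background 8.29%) and at least 2-fold higher 0 (background 9.25%). On library totals these counts were 0 (background 2.32%) and 2 (background 43.9%). snR84 (-1.02) lay just inside the rule and snR52 (-0.99) just outside. The lowest was snR35 (-1.72), a box H/ACA RNA aimed at the small subunit rRNA. It read 5639 in heat shock with rapamycin and 9516 in heat shock without it, against 7187 at 30 °C with rapamycin and 3679 without it. snR70 (-1.70), snR81 (-1.66), snR83 (-1.59) and snR69 (-1.50) came next. Above 0 on the deposited scale were snR60 (0.41), snR38 (0.34) and snR57 (0.01), the members with the lowest ratios at 30 °C; this value and the 30 °C ratio share 2 libraries.

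The labels give no replicates, and a count test on the recovered reads treats the departure from additive effects as its error. The quasi-likelihood test of edgeR, with heat and rapamycin as additive terms, 1 residual degree of freedom and Benjamini-Hochberg adjustment, called 5 of 76 snoRNAs higher and 0 lower with heat, where it called 20.2% of all features higher and 19.3% lower. The 5 were the box C/D RNAs snR38, snR57, snR59, snR62 and snR65, with log2 ratios of 0.81 to 1.13. An unadjusted p under 0.05 for heat was found for 9 of 76 members, against 2680 of all 5642 features. With rapamycin the test called 0 of 76, where it called 0.106% of all features higher and 0.354% lower. The unadjusted p for rapamycin was under 0.05 for 5 of 76 members, against 369 of 5642 features. This test compares these 4 libraries and not the conditions.

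Genes of the snoRNA-protein particle had lower values in heat shock. Of a list of 28 genes for snoRNA-binding proteins, their assembly factors and snoRNA processing, 19 were past 2-fold lower and 0 past 2-fold higher in heat shock without rapamycin (median log2 ratio -1.42; backgrounds as above), and 15 were past 2-fold lower with rapamycin (median -1.16). All 9 genes of the core proteins were at least 2-fold lower without rapamycin (median -3.82), and 8 of 9 with it (median -2.99). NOP1, the methyltransferase of box C/D particles, read 108 in heat shock with rapamycin and 51.0 in heat shock without it, against 1104 at 30 °C with rapamycin and 981 without it. Without rapamycin it was 18.9-fold lower in heat shock (13.6 to 28.0). CBF5, the pseudouridine synthase of box H/ACA particles, read 125 in heat shock with rapamycin and 58.5 in heat shock without it, against 1730 at 30 °C with rapamycin and 904 without it. Without rapamycin it was 15.2-fold lower (11.2 to 21.9). For both genes the heat shock values lay far under the 30 °C values with and without the drug.

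The other core genes followed. In heat shock without rapamycin the box H/ACA genes GAR1 and NHP2 were 20.4-fold (lower bound 12.1) and 14.6-fold lower (9.03 to 27.6), and the box C/D genes NOP58 and NOP56 were 14.1-fold (9.98 to 21.4) and 9.95-fold lower (7.93 to 12.8). SNU13, whose protein also binds a spliceosomal RNA, was 2.63-fold lower (2.09 to 3.37) and with rapamycin 1.64-fold lower (1.38 to 1.97). Among the processing genes, RRP6, an exosome nuclease gene, was 3.73-fold lower (2.67 to 5.42) and the exonuclease gene RAT1 2.73-fold (2.05 to 3.74). RNT1, which encodes the endonuclease that cuts many snoRNA precursors, was 1.92-fold lower (1.20 to 3.20), short of the rule, and the debranching enzyme gene DBR1 did not differ beyond counting error (1.22-fold, 0.763 to 1.99; below 0 on library totals). Between the 30 °C libraries 2 of the 28 were at least 2-fold lower with rapamycin (background 4.02%): TAH1 (2.22-fold, 1.48 to 3.47) and HIT1 (2.02-fold, 0.830 to 5.77). Between the heat shock libraries 4 were at least 2-fold higher with rapamycin (background 4.56%), and 10 on library totals (background 15.4%). The 4 were NOP1, NOP58, CBF5 and GAR1, by 2.09-fold to 2.33-fold.

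Intron-encoded snoRNAs could be set beside the exons of their own host genes. All 8 were higher in heat shock without rapamycin on the deposited scale (median 0.99, 4 past 2-fold, background 19.8%), and all but snR18 on library totals, while 6 of the 8 host genes were at least 2-fold lower (median -1.26, background 19.3%). snR191 read 2235 in heat shock with rapamycin and 3697 in heat shock without it, against 2081 at 30 °C with rapamycin and 1558 without it. Its host NOG2, a gene of large subunit assembly, read 58.6 in heat shock with rapamycin and 73.5 in heat shock without it, against 525 at 30 °C with rapamycin and 392 without it. snR191 was thus 2.37-fold higher (2.21 to 2.55) and NOG2 5.27-fold lower (3.92 to 7.38) in heat shock without rapamycin. snR54 was 1.85-fold higher (1.62 to 2.12) while its host IMD4, a guanine nucleotide synthesis gene, was 8.43-fold lower (6.70 to 10.9). RPS22B, host of snR44, was the only host gene not below 0 there, at 70.5 against 62.9, and lay below 0 on library totals.

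The remaining host genes code for the translation machinery. In heat shock without rapamycin TEF4, host of snR38, was 2.93-fold lower (2.67 to 3.22), RPL7A, host of snR39, 2.56-fold (2.23 to 2.96), and RPL7B, host of snR59, 2.24-fold (1.53 to 3.39). ASC1, host of snR24, was 2.04-fold lower (1.92 to 2.17) and EFB1, host of snR18, 1.31-fold lower (1.24 to 1.38). At 30 °C the pair snR38 and TEF4 also differed in direction: snR38 was 2.06-fold lower with rapamycin, and TEF4 1.55-fold higher (1.47 to 1.64). When rapamycin was present, heat shock values of 6 of 8 host genes were again past 2-fold lower (median -1.42, background 14.6%). Of their snoRNAs 7 of 8, all but snR54, were above 0 (median 0.22) on the deposited scale. On library totals 8 of 8 were (median 0.63), where all features had a median of 0.40.

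**Figure D4:**
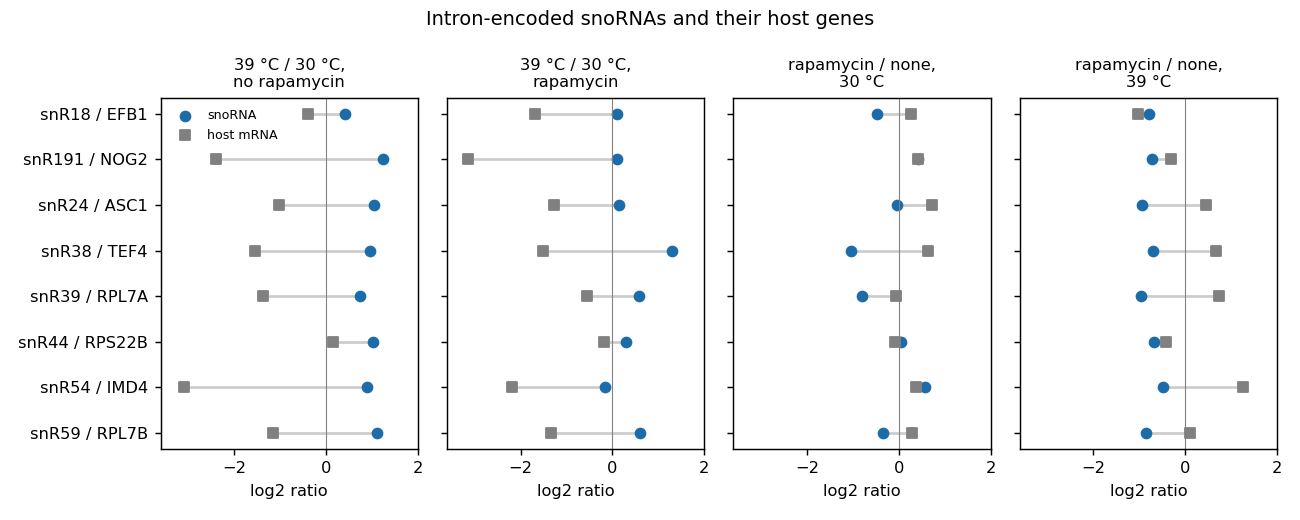
Log2 ratios of the 8 intron-encoded snoRNAs (y axis labels) and of the exons of their host genes in the 4 comparisons, on the deposited scale; circles are snoRNAs and squares host genes. In heat shock without rapamycin every snoRNA lies above 0 and 7 of 8 host genes lie below it; on library totals snR18 and RPS22B also lie below 0.

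Members processed from one precursor could be compared with one another. The 17 polycistronic snoRNAs lie in 5 clusters of 2 to 7 genes on one strand, and a common precursor is made for each. Within every cluster the heat shock ratios without rapamycin were close, with the gap between the lowest and the highest member running from 0.00 to 0.50 on the log2 scale, and so were the rapamycin ratios in heat shock (0.09 to 0.34). Between the 30 °C libraries the gaps were wider, 0.51 to 1.08, and for heat shock with rapamycin they were 0.60 to 0.96. The SD across all 76 members was also larger in these comparisons (0.54 and 0.44) than in the former ones (0.28 and 0.13). Whether members of a precursor were closer than other members was not tested. The widest gap at 30 °C was in the cluster of snR57, snR55 and snR61, in that order along the precursor. Their sequences are shown because they come from the same transcript and differ in their boxes: TGATGA and CTGA were found in the windows given above in snR55 and snR61 and not in snR57. snR57 lies at chrXII:794937-795024, minus strand, snR55 at chrXII:794697-794794, minus strand and snR61 at chrXII:794486-794575, minus strand.
snR57: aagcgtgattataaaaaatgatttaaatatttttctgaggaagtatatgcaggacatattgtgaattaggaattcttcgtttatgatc
snR55: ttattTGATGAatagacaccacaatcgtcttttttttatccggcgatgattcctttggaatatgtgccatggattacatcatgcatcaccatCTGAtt
snR61: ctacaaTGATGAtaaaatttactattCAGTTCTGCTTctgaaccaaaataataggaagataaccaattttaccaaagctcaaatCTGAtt
With rapamycin at 30 °C, snR57 was at 469 against 894 without it, 1.90-fold lower (1.69 to 2.14). snR55 was at 1607 against 1450, 1.11-fold higher (1.03 to 1.20), and snR61 at 717 against 1064, 1.48-fold lower (1.34 to 1.64). The ratio of the middle member therefore lay above those of its neighbours by more than counting error, and on library totals, where all 3 were below 0, the log2 ratios were -1.29, -0.21 and -0.93 in that order. In heat shock without rapamycin the same RNAs were 1.95-fold (1.76 to 2.15), 1.82-fold (1.68 to 1.96) and 2.12-fold higher (1.94 to 2.32) than at 30 °C without it.

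The other clusters gave like contrasts. In the pair of snR190 and U14 both log2 ratios were 0.69 in heat shock without rapamycin. At 30 °C with rapamycin snR190 was at 17868 against 12594 without it, 1.42-fold higher (1.38 to 1.45), and U14 at 9413 against 9460 (0.995-fold, 0.965 to 1.03); on library totals their log2 ratios were 0.14 and -0.37. In the pair of snR67 and snR53 the 30 °C log2 ratios were -0.11 and 0.64. All 3 members of the cluster of snR41, snR70 and snR51 were higher with rapamycin at 30 °C, by log2 ratios of 0.47, 1.07 and 0.77. In the cluster of 7 on chromosome XIII, from snR78 to snR72, they ran from -0.36 (snR73) to 0.52 (snR72).

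**Figure D5:**
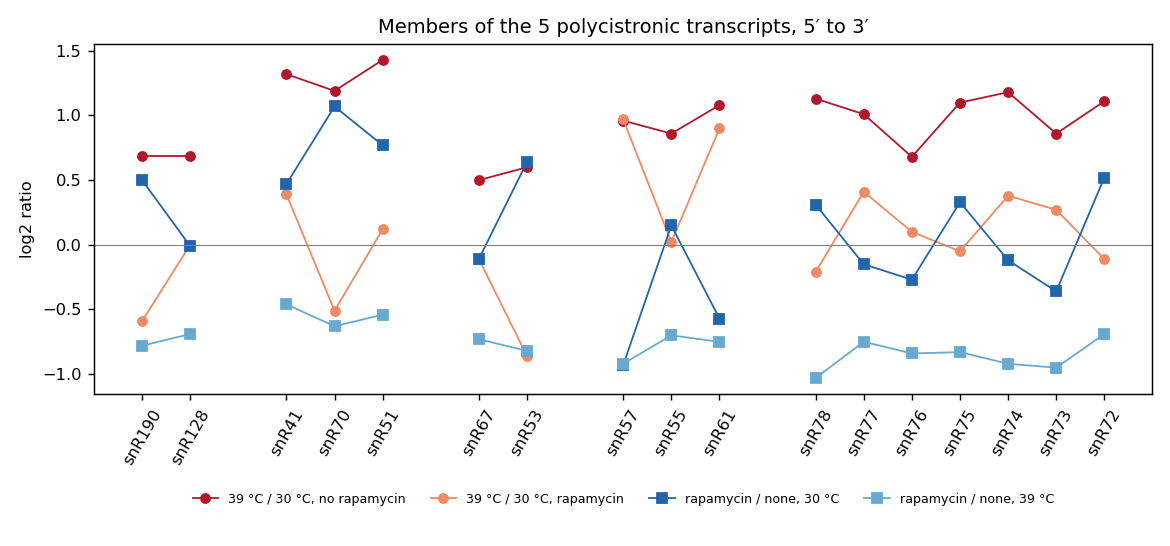
Log2 ratios of the 17 polycistronic snoRNAs, ordered along each of the 5 precursors, in the 4 comparisons, on the deposited scale; lines join members of a precursor. Members of a precursor lie within 0.50 of each other for heat shock without rapamycin and up to 1.08 apart for rapamycin at 30 °C.

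The DNA upstream of the genes was searched for letters of known factor sites, on both strands. The 55 units searched were the 50 snoRNA genes with a promoter of their own and the first member of each of the 5 clusters. Host genes of intron-encoded members were not among them. The window was the 300 bases before the annotated start of the snoRNA, which need not be where transcription starts. A heat shock element of 3 alternating units was found before 0 of 55 units and before 0.836% of 6458 genes. ACCCTAA, a core of the Tbf1 site, lay before 5 units (9.09%, against 2.43% of genes): snR13, snR30, snR35, snR46 and snR65. TTACCCG, a core of the Reb1 site, lay before 10 units (18.2%, against 7.65% of genes). These matches describe letters in a window and not binding.

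Other structural RNAs gave a measure of what stable transcripts did in the same libraries. The 5 spliceosomal RNAs with reads had a median log2 ratio of 0.65 in heat shock without rapamycin and -0.31 with it, of 0.70 for rapamycin at 30 °C and -0.66 for rapamycin in heat shock. The RNAs of the signal recognition particle (SCR1), RNase P (RPR1), RNase MRP (NME1) and telomerase (TLC1) had medians of 0.52, -0.56, 0.58 and -0.65 in the same order of comparisons. SCR1 read 106070 in heat shock with rapamycin and 152069 in heat shock without it, against 183852 at 30 °C with rapamycin and 112689 without it. In heat shock without rapamycin NME1, whose RNA acts in rRNA processing, was 2.45-fold higher (2.33 to 2.59) and SNR19, the U1 RNA, 2.48-fold (2.39 to 2.58). SNR7-L, a long form of the U5 RNA, was at 3311 with rapamycin at 30 °C against 996 without it, 3.32-fold higher (3.06 to 3.61), although its reads can overlap with the short form SNR7-S, listed at 0 in all libraries. The snoRNA medians in that order of comparisons were 0.92, 0.09, 0.06 and -0.73. All 9 of these other RNAs lay above 0 for heat shock without rapamycin, 8 of 9 on library totals (not SCR1), and all 9 lay below 0 for rapamycin in heat shock on either scale. On library totals the spliceosomal median for heat shock with rapamycin turned to 0.09. The 29 transfer RNA features that passed the filter, of 299, had medians of 0.44, -0.98, 0.46 and -0.87, the first of which was -0.01 on library totals.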

How the data were processed

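RNA-seq of 4 yeast libraries, 1 per combination of temperature and rapamycin, was deposited as 1 table. Per the labels, total RNA was extracted with phenol and chloroform for Illumina libraries. The submitters' processing notes name TopHat, HTSeq and the build sacCer3. Not given in the sources used here are strand handling, size selection and how values were scaled. The deposited signal values are read counts divided by 1 size factor per library: 100% of values were whole multiples of the value of 1 read within 0.0055, so reads could be recovered. The plan assumed counts or normalised values and the branch for normalised values was used.

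Features with a mean of at least 5 were kept (5642). Ratios were taken on log2(value + 1), without a test, and understate changes of low genes; folds and exact conditional binomial 95% intervals come from recovered reads. Total counts per library set the precision: the interval's upper bound was at most 1.71 times its lower bound for any member, with a median of 1.13. The reads carry no molecular identifiers and are not independent molecules, so intervals cover counting error only. The count test used edgeR 4.0.16 (R 4.3.3) on recovered reads; over all features it called 1140 higher and 1090 lower with heat, and 6 higher and 20 lower with rapamycin. Other steps used Python 3.11.15, pandas 2.3.3, numpy 2.4.6 and scipy 1.17.1. The count test and the ratios with their 2-fold rule were tested on simulated data.

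Genes, coordinates and sequences come from RefSeq R64, the assembly that sacCer3 names. The annotation lists 99 rRNA targets, 96 of which had the stated base at the stated position; duplexes were searched for box C/D RNAs. Named members are the precursor-cleavage, acetylation and RNA polymerase III snoRNAs, intron-encoded and polycistronic members, the 5 highest and 5 lowest in each comparison, the 5 of highest level, pathway genes past 2-fold and the comparison RNAs. snR58, snR65, snR79, snR84 and snR86 were also named for their place at a threshold, an extreme or a flag, after their values were seen. The members and lists were chosen with earlier results of these data known. The alternatives were other scalings, pseudocounts, filters and the count test.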

Additional observations from a re-analysis of the deposited data

Results flagged for a closer look

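Members are listed here when 1 contrast moved them at least 1.5-fold in opposite directions at the other level of the second factor; each value rests on 4 single libraries, and the difference was not tested. On the deposited scale, 11 snoRNAs were higher with rapamycin at 30 °C and lower with rapamycin in heat shock. The rule was applied to snoRNAs only, here and with the contrast turned round below. Features meeting it were not counted over all features, so whether snoRNAs exceeded such a background was not tested. The heat shock ratio minus the 30 °C ratio, in log2 units, was -1.72 for snR35, -1.70 for snR70, -1.66 for snR81, -1.59 for snR83, -1.50 for snR69 and -1.49 for snR45. It was -1.46 for snR53, -1.45 for snR58, -1.41 for snR86, -1.39 for snR31 and -1.38 for snR17b, whose reads could be shared with snR17a.

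With the contrast turned round, 3 snoRNAs were lower in heat shock with rapamycin and higher in heat shock without it. Subtracting the heat shock ratio without rapamycin from that with it gave -1.28 for snR190 (-0.59 with, 0.69 without), -1.46 for snR53 (-0.86 with, 0.60 without) and -1.50 for snR69 (-0.78 with, 0.72 without). It is the same quantity as above, so snR53 and snR69 are not further evidence. All of these members read higher at 30 °C with rapamycin than at 30 °C without it, and that library's share of transfer RNA reads was 18.3%, against 14.3% without the drug. The part of that library's composition in these values was not tested. On library totals 0 members met the 1.5-fold rule in either contrast, against 11 and 3 on the deposited scale. The median of this difference over all 76 members was 0.10 on library totals, against -0.75 on the deposited scale.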

How the results depend on the processing

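A median or single ratio counts as moved when it shifts by more than the half-width of the counting interval (for a median, that of the member nearest to it), and a count when it changes by over 1.5 times. Under median-of-ratios and TMM scaling, other pseudocounts and filters no snoRNA median or count moved by these measures; the members at least 2-fold higher in heat shock without rapamycin were 31 under median-of-ratios scaling, against 34 as deposited. Pathway genes at least 2-fold lower with rapamycin at 30 °C were 1 with the larger pseudocount or the strictest filter, against 2. Scaling by totals moved the median over all 76 snoRNAs in every comparison, because it moves all features together. On library totals the median log2 ratio of the 76 snoRNAs was 0.48 for heat shock without rapamycin, 0.50 for heat shock with it, -0.30 for rapamycin at 30 °C, -0.24 for rapamycin in heat shock and 0.10 for the difference of heat shock ratios, whose sign turned. On protein-coding totals these medians were 0.60, 0.34, -0.18, -0.40 and -0.18, and on totals without snoRNA and transfer RNA reads 0.54, 0.39, -0.24, -0.35 and -0.07. Relative to the median of all features they were 0.90, 0.10, 0.04, -0.76 and -0.80 on library totals and 0.90, 0.10, 0.05, -0.77 and -0.81 on the deposited scale.

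Counts past 2-fold are given for library totals, protein-coding totals and totals without snoRNA and transfer RNA reads, in that order. The shares of all features past 2-fold on the same scales follow as backgrounds. Higher in heat shock without rapamycin were 0, 6 and 5 members (34 as deposited), beside backgrounds of 12.8%, 14.4% and 13.6%. Heat shock with rapamycin gave 12, 9 and 10 higher (2 as deposited), beside 28.1%, 23.7% and 25.1%. With rapamycin at 30 °C, 0, 0 and 0 were higher (1 as deposited), beside backgrounds of at most 2.45%. There 7, 5 and 7 were lower (2 as deposited), beside 10.4%, 7.49% and 9.12%. With rapamycin in heat shock 0, 0 and 0 were lower (1 as deposited), beside 1.35%, 1.61% and 1.54%. For the difference of heat shock ratios 0, 4 and 2 were lower (28 as deposited), beside 2.32%, 3.19% and 2.82%. Higher in that difference were 2, 0 and 2 (0 as deposited), beside 43.9%, 28.1% and 33.9%. edgeR's additive count test called 5 members higher with heat and 0 in either direction with rapamycin.

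As a share of protein-coding reads the snoRNAs were 17.5% in heat shock with rapamycin, 22.9% in heat shock without it, 15.0% at 30 °C with it and 15.4% at 30 °C without it. As a share of reads without transfer RNA these were 12.9%, 15.8%, 10.9% and 11.6%. Of the values of subgroup medians, pathway counts and single named members under other settings, 870 moved and 2130 did not. No paired analysis was possible because each group holds 1 library and the labels carry no replicate numbers, and no library could be left out.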
